A study of Homo sapiens with 4 samples.

Results

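Peaks of the transcription factor ONECUT2 at the starts of CDK12, ERCC4 and ATMIN, 3 genes known for roles in genome maintenance, are described here in 22Rv1, an established human prostate carcinoma cell line. They come from chromatin immunoprecipitation followed by sequencing (ChIP-seq), in which cross-linked DNA is pulled down with an antibody and sequenced. The study has 4 libraries in 2 groups, all of 22Rv1 cells with no drug, knockdown or other treatment named in the labels: 2 ChIP libraries pulled down with a rabbit anti-ONECUT2 antibody and 2 of input DNA, which is sonicated chromatin without immunoprecipitation. Each ChIP library has 1 deposited peak list, and 1 more list holds regions that passed an irreproducible discovery rate (IDR) procedure, which is meant to keep regions that rank alike in replicates. Separate cultures for the ChIP libraries are not named in the labels, so the spread between them may be technical, and all cells are of 1 line.

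The members were found by position. Peaks were taken that overlap a window of 175 kb around CDK12 (chr17:37567000-37742000), 133 kb around ERCC4 (chr16:13964000-14097000) or 112 kb around ATMIN (chr16:81019000-81131000), all in hg19. The windows held 10 replicate 1 peaks of 14431 in all, 12 replicate 2 peaks of 11990 and 6 IDR regions of 4297. No annotation of hg19 was used here. The promoter peak of a gene is therefore a peak that lies within 1 kb of the point 50 kb inside the lower end of its window, and of several such peaks the one of highest fold enrichment. There were 2 such peaks for CDK12 in replicate 2, 2 for ATMIN in replicate 1 and 3 for ATMIN in replicate 2, and a single one in the other cases. In both replicate lists the peak taken covers the point itself at all 3 genes. That point stands for the gene's start because all 3 genes read along the plus strand and the ERCC4 and ATMIN windows are 100.8 and 100.5 kb longer than the genes in RefSeq. The CDK12 window is 68.9 kb longer than the current RefSeq gene, so its lower flank of 50 kb was taken from the pattern of the other two. Each gene had such a peak in all 3 lists. The genes were chosen from results of these same lists, where the heights of their peaks were already known. Every height, rank and width below is thus a description, and no test was made on it.

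CDK12 is a cyclin-dependent kinase that works with cyclin K, phosphorylates the tail of RNA polymerase II and supports full-length transcription of long genes, many of them for DNA repair. Its loss is known in a subset of advanced prostate cancers. ERCC4, also called XPF, is the nuclease that with ERCC1 cuts damaged DNA in nucleotide excision repair and in the repair of crosslinks. ATMIN is a zinc-finger protein that interacts with the damage kinase ATM and also acts as a transcription factor. ONECUT2 itself is a CUT-homeodomain factor known from liver and neural development and studied in castration-resistant prostate cancer.

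The DNA just before each start is shown because the peaks cover the points taken as these starts. The sequences are from RefSeq on GRCh38.p14, 250 bases before the start on the plus strand, and their coordinates cannot be set against the hg19 positions of the peaks. Capitals mark every match to a searched word on either strand.
CDK12: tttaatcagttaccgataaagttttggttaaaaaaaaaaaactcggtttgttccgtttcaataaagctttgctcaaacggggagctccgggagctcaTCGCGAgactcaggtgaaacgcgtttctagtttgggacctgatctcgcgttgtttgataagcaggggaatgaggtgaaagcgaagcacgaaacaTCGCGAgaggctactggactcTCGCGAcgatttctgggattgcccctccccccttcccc
ERCC4: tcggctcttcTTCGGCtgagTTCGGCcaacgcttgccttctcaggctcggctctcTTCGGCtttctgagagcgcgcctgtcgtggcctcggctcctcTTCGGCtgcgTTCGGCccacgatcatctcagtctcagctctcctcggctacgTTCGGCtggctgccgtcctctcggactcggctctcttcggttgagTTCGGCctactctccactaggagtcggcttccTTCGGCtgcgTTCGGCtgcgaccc
ATMIN: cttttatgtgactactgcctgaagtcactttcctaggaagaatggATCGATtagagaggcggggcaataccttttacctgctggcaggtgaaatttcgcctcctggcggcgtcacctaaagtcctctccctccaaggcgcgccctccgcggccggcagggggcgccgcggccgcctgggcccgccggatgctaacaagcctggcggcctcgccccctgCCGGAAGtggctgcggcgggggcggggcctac
They lie at chr17:39461236-39461485, chr16:13919904-13920153 and chr16:81035592-81035841, in the order CDK12, ERCC4 and ATMIN.

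Of the 3 windows of 250 bases, that of ATMIN held a core word of ONECUT factors. It was the palindrome ATCGAT, 205 to 200 bases before the start, a word found in 0.655% of the 35116 RefSeq promoter windows of the same length. The other ONECUT core, ATTGAT, which 5.58% of all windows hold, was in none of the 3. Both cores were searched, and 6.19% of all windows hold at least 1 of them. ATMIN also had the ETS word CCGGAAG 32 to 26 bases before its start (8.52% of all windows). The NRF1 half-site GCGCATG (3.77% of all windows) and the YY1 core ATGGCGG (2.88%) were in none of the 3. None of these words overlaps another one searched. The promoter peaks in the replicate lists were 1559 to 4805 bp wide, so most bases of each peak were not searched.

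A pair of further words were searched because they recur in the printed letters, so they were chosen after the sequences were seen. The ERCC4 window held TTCGGC 9 times, and among the 35116 windows 1, its own, held it that often, while 5.77% held it at all. The CDK12 window held the palindrome TCGCGA 3 times, which 6 windows reached, its own included, and 2.64% held it at all. ATMIN had neither word. The share of G and C was 48.8% for CDK12, 63.6% for ERCC4 and 65.6% for ATMIN, levels that 70.5%, 36.6% and 31.4% of all windows reach. These matches describe the letters only. Nothing here shows which bases under a peak were bound.

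The CDK12 promoter peak was the tallest of the 3. In replicate 1 it ran from 37616097 to 37619506 on chromosome 17, with 342 ChIP fragments at its summit over an input background of 11.2 fragments. Its fold enrichment, which is the pileup of ChIP fragments at the summit over that background with 1 added to each, was 28.2. The background is the value the peak caller used there, recovered from fold and p-value, and not a count of input fragments at the summit. In replicate 2 the CDK12 peak ran from 37616128 to 37619127, with 324 fragments over 12.3 and a fold enrichment of 24.4. The mean was 26.3 ± 2.64 (SD, n = 2). Both libraries therefore showed a high peak, and the 95% counting intervals of fold, 25.3 to 31.3 and 21.9 to 27.2, overlapped. Among peaks of chromosome 17 it had the highest fold in each replicate, of 608 and 393 peaks.

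At ATMIN the peak stood on less material. It ran from 81068174 to 81070183 on chromosome 16 in replicate 1, with 205 fragments over a background of 8.28 and a fold enrichment of 22.2. In replicate 2 it ran from 81068084 to 81069642, with 200 fragments over 9.22 and a fold enrichment of 19.7. The mean was 20.9 ± 1.79 (SD, n = 2), the smallest spread between replicates of the 3 genes. The fragments of the 2 libraries differed by a factor of 1.02, well within counting error. Total reads were not given, so this factor was not set against library depth.

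ERCC4 had the lowest fold enrichment and the widest peak. In replicate 1 the peak ran from 14011960 to 14016764 on chromosome 16, with 290 fragments over a background of 15.1 and a fold enrichment of 18.1. In replicate 2 it ran from 14012464 to 14016704, with 260 fragments over 17.6 and a fold enrichment of 14.1. The mean was 16.1 ± 2.83 (SD, n = 2), the largest spread of the 3. Its counting intervals of fold, 16.0 to 20.3 and 12.4 to 15.9, did not overlap, whereas those of the fragments did (258 to 325 and 229 to 294). The background was 1.16 times higher in replicate 2 at ERCC4, 1.10 times at CDK12 and 1.11 times at ATMIN.

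Fold enrichment fell in the order CDK12, ATMIN, ERCC4 in both replicates, and the replicate values of the 3 genes did not overlap. In replicates 1 and 2 CDK12 stood at 1.27 and 1.24 times the fold of ATMIN, and ATMIN at 1.23 and 1.40 times that of ERCC4. The counting intervals of CDK12 and ATMIN overlapped in both replicates, those of ATMIN and ERCC4 (19.3 to 25.4 against 16.0 to 20.3) in replicate 1 but not in replicate 2, and those of CDK12 and ERCC4 in neither. Intervals cover counting error of the ChIP fragments only and take the background as known. Separate intervals can overlap where a difference exceeds counting error, so overlap does not show that these genes are alike.

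Counting fragments instead changed the order. ERCC4 then came before ATMIN, with 290 against 205 fragments in replicate 1 and 260 against 200 in replicate 2. The background at the ATMIN summit was 0.548 and 0.525 times that at ERCC4, and this ratio turns fewer fragments into a higher fold. CDK12 stayed first, at 1.18 and 1.25 times the fragments of ERCC4. Their counting intervals overlapped (307 to 380 against 258 to 325 in replicate 1, and 290 to 361 against 229 to 294 in replicate 2). That overlap alone does not place the difference within counting error. What sets the background at each site, such as the number of DNA copies or how open the chromatin is, was not tested.

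**Figure D1:**
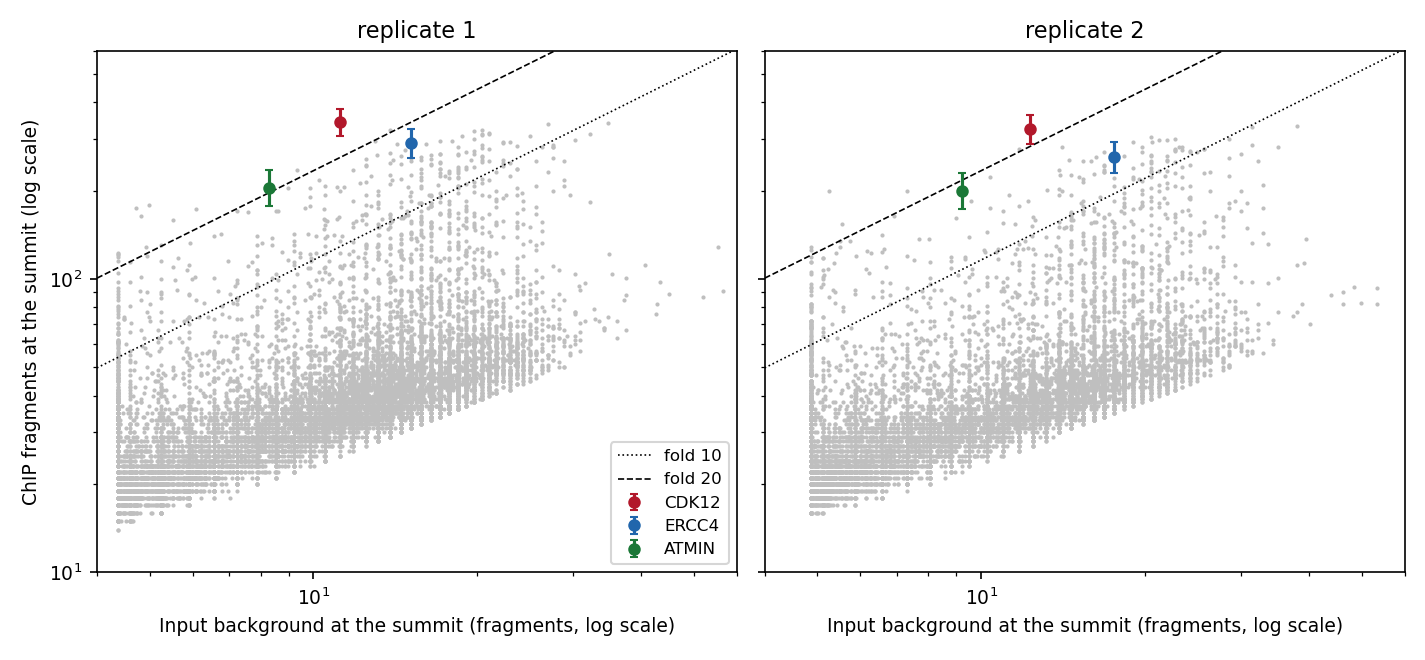
ChIP fragments at the summit (vertical, log scale) against input background at the summit (horizontal, fragments, log scale) for all peaks of replicate 1 (left) and replicate 2 (right) in grey, without the 38 and 17 peaks that lie beyond the axes. Coloured points are the promoter peaks with 95% counting intervals, and lines mark fold enrichments of 10 and 20: CDK12 lies above the line of 20 in both panels, ERCC4 between the lines, and ATMIN, with the lowest background, next to the line of 20 (22.2 and 19.7).

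The summits were in nearly the same place in both libraries. They lay 36 bp apart at CDK12 (37617639 and 37617603), 10 bp apart at ERCC4 (14013748 and 14013758) and 4 bp apart at ATMIN (81069253 and 81069249). Each of the 7370 replicate 1 peaks that overlap a replicate 2 peak was paired with the overlapping peak of nearest summit. Over these pairs the median distance was 79 bp, and over the 291 with a mean fold of at least 10 it was 18 bp. Where several peaks overlapped, the distance is thus the smallest. CDK12 was thus above and the other two below the middle of the high pairs. Replicate 1 had the higher fold at all 3 genes, with a log2 ratio of replicate 2 over replicate 1 of -0.21 at CDK12, -0.36 at ERCC4 and -0.18 at ATMIN, and also in 78.7% of the 291 high pairs.

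The ERCC4 peak was the widest of the 3, and that of CDK12 was also among the widest of each list. At ERCC4 the peak was 4805 bp wide in replicate 1 and 4241 bp in replicate 2, places 6 and 11 when the lists are ordered by width. The CDK12 peak was 3410 and 3000 bp wide (places 27 and 41), and the ATMIN peak 2010 and 1559 bp (places 201 and 327). Peaks that reached a fold of 10 had a median width of 1603 and 1606 bp, so ATMIN lay near it and the other two above it. At ERCC4 the peak was also lopsided. It reached 3016 bp past the summit in the direction of the gene in replicate 1 against 1788 bp on the other side, and 2946 bp against 1294 bp in replicate 2. CDK12 reached 1867 and 1524 bp past the summit and 1542 and 1475 bp before it. ATMIN reached further before the summit, 1079 and 1165 bp, than past it, 930 and 393 bp.

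**Figure D2:**
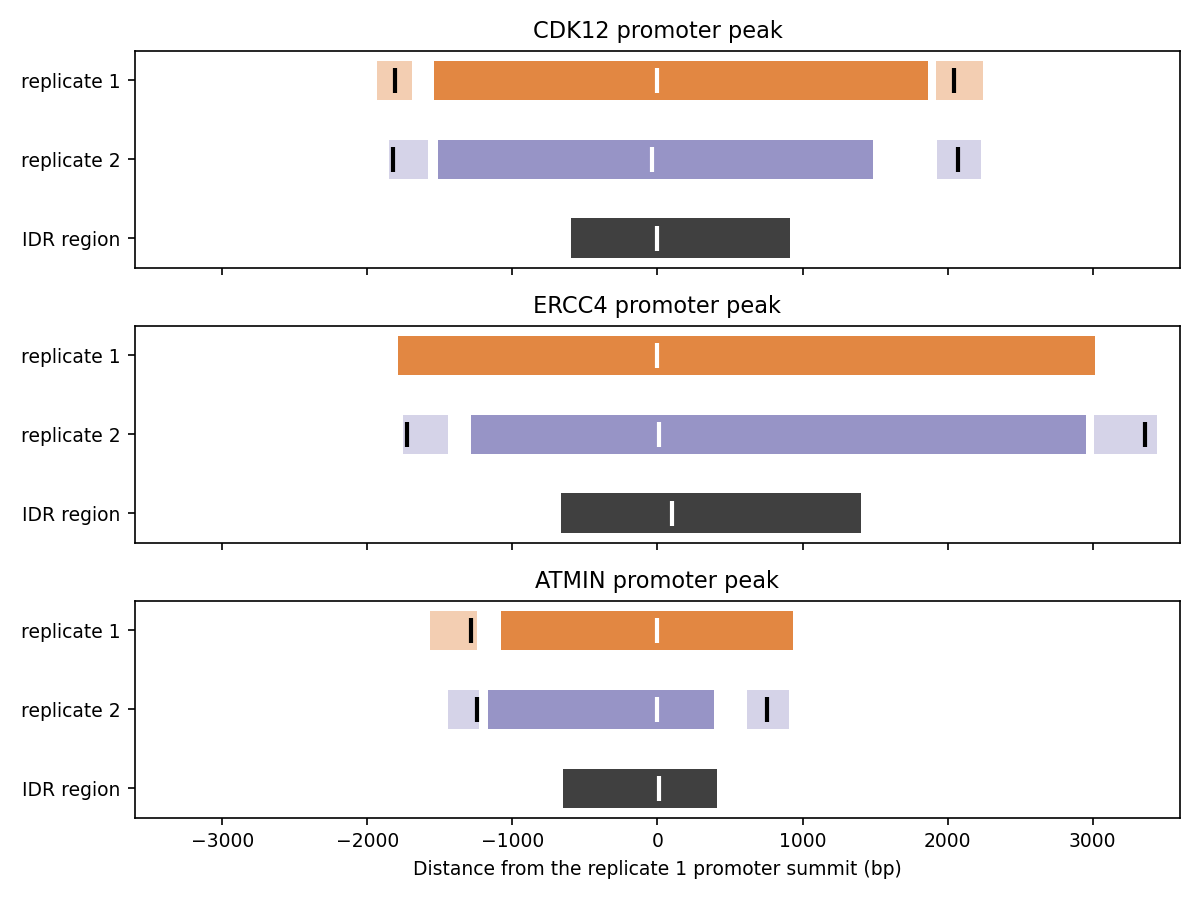
Extent of the promoter peaks (full colour) and of other peaks close by (pale) in each list, in bp from the replicate 1 summit with the direction of the gene to the right; ticks are summits. The ERCC4 peak is the widest, at 4805 and 4241 bp, and reaches furthest to the right, and the summits of each gene fall within 102 bp of each other in all 3 lists.

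Small separate peaks stood beside each promoter peak, at gaps of 51 to 436 bp. CDK12 had 1 on each side in both replicates, with fold enrichments of 3.04 and 3.12 in replicate 1 and 2.36 and 3.05 in replicate 2. ERCC4 had none in replicate 1. In replicate 2 it had 2, with fold enrichments of 2.88 and 3.07, and the one before the promoter peak lay within the single wide peak of replicate 1 while the other lay mostly past its end. ATMIN had 1 in replicate 1 (3.83) and 2 in replicate 2 (2.40 and 2.33), of which the latter lay within the promoter peak of replicate 1. The same stretch was thus called as 1 peak in one library and in pieces in the other at ERCC4 and ATMIN. All of these small peaks had between 21 and 32 fragments, none was in the IDR list, and the median peak had 34 fragments in replicate 1 and 30 in replicate 2.

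Within its window each promoter peak was the highest in every list. The CDK12 window had a second high peak, 10.1 kb before the promoter summit in replicate 1 and 10.0 kb in replicate 2, from 37606606 to 37607911 in replicate 1 and from 37606746 to 37607924 in replicate 2. Its fold enrichment was 16.5 in replicate 1, with 200 fragments over 11.2, and 10.8 in replicate 2, with 168 fragments over 14.6. The CDK12 peak was 1.71 and 2.26 times as high. This second peak ranked 59 and 183 by fold and 254 by IDR signal (456), and a weaker peak of fold 4.30 and 2.85 lay beside it. The protein-coding gene next to CDK12 on that side is MED1, which encodes a subunit of the Mediator complex that links transcription factors to RNA polymerase II. The second peak was not assigned to MED1, since no hg19 annotation was used here. On the other side lie the gene body and NEUROD2, the next protein-coding gene. There the last summit called in the CDK12 window lay 2.045 kb past the promoter summit in replicate 1 and 2.11 kb in replicate 2.

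The ERCC4 window held nothing apart from the promoter peak and its small neighbours. Beyond the window the nearest peaks lay 89.9 kb before and 67.7 kb after it in replicate 1, and 90.0 kb and 67.8 kb in replicate 2. The next protein-coding genes are SHISA9 before it and MRTFB, a coactivator of serum response factor, after it.

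In the ATMIN window the other peaks were low. A peak from 81039381 to 81039735 in replicate 1, 29.8 kb before the promoter summit, had a fold enrichment of 3.27, and its counterpart in replicate 2, from 81039379 to 81039759, had 4.07. It was in both replicate lists but not in the IDR list. Close to it the IDR list had a region from 81040129 to 81041760 with a signal of 225, which overlapped a replicate 1 peak of fold 2.37 and no replicate 2 peak. Another IDR region, from 81128680 to 81131579, crossed the upper end of the window with a signal of 146 and overlapped no peak of either replicate. The ATMIN promoter peak was 5.80 and 4.83 times as high as the next peak of its window. The neighbouring protein-coding genes are CMC2 and CENPN before ATMIN and C16orf46 and GCSH after it. CENPN encodes a centromere protein, and GCSH a subunit of the glycine cleavage system.

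**Figure D3:**
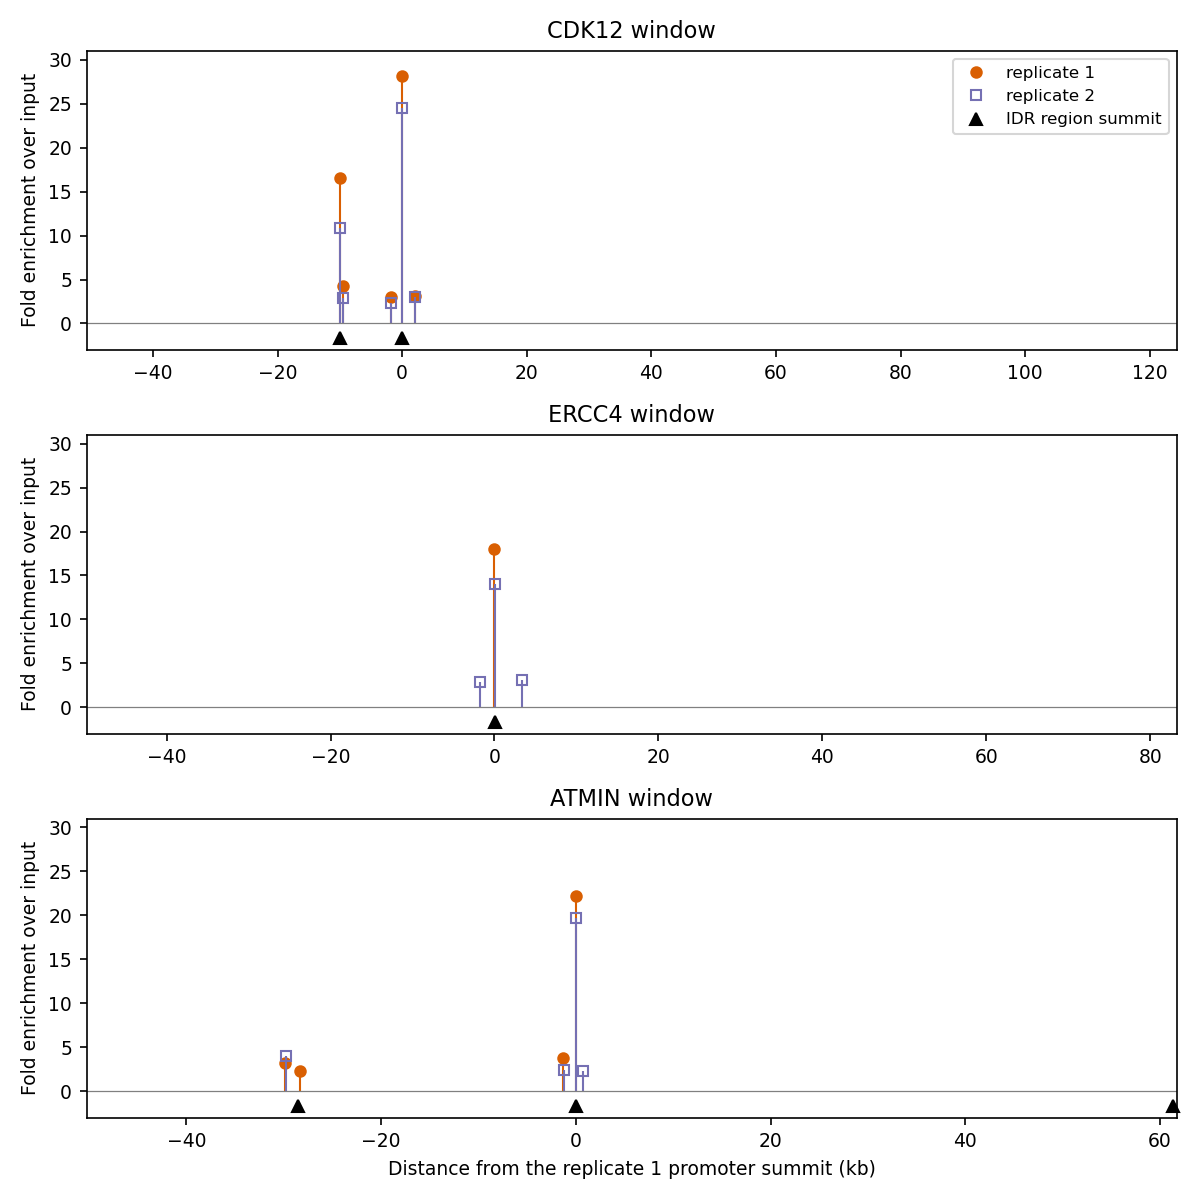
Fold enrichment over input of every peak in the 3 windows, by distance in kb from the replicate 1 promoter summit; filled circles are replicate 1, open squares replicate 2, and triangles under the axis are summits of IDR regions. The promoter peaks stand at 28.2 and 24.4 for CDK12, 18.1 and 14.1 for ERCC4 and 22.2 and 19.7 for ATMIN, and the only other peak above 10 lies about 10 kb before the CDK12 summit.

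Of the 10 replicate 1 peaks in the windows, 4 had a fold enrichment of 10 or more, where 2.53% of the whole list did. In replicate 2 it was 4 of 12, against 1.99%. A peak of the other library was overlapped by 9 of the 10 (51.1% of the whole replicate 1 list) and by 12 of the 12 (64.5% of the replicate 2 list). An IDR region was overlapped by 5 of the 10 (32.8% of the list) and 4 of the 12 (31.4%). Of the 6 IDR regions, 4 overlapped peaks of both replicates (63.3% of all IDR regions) and 5 had the top score of 1000 (56.3%). The genes were chosen with these lists in view, so nothing is read from the counts.

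By fold enrichment the promoter peak of CDK12 ranked 4 in replicate 1 and 2 in replicate 2, that of ATMIN 12 and 13, and that of ERCC4 38 and 70. Among the 7370 pairs of a replicate 1 peak with its nearest overlapping replicate 2 peak, ordered by mean fold, they took places 3, 11 and 51. The peaks next above and below CDK12 had folds of 28.4 and 24.5 in replicate 1 and of 32.2 and 24.1 in replicate 2, so that it had a near equal on 1 side in each list. In replicate 1 the neighbours in rank of ATMIN had folds of 22.3 and 21.9 and those of ERCC4 18.1 and 18.0, close to their own 22.2 and 18.1.

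Ordered by fragments the places were 1 and 8 for CDK12, 31 and 46 for ERCC4 and 162 and 110 for ATMIN. Ordered by the authors' p-value CDK12 came first in both lists, ERCC4 held places 7 and 20, and ATMIN 52 and 34. The ranks of CDK12 thus lay between 1 and 8 on these scales, while ATMIN and ERCC4 changed places with the scale.

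In the IDR list ERCC4 came first of the 3 and ATMIN last. The ERCC4 region, from 14013083 to 14015149, had a deposited signal of 1206 and rank 11. The CDK12 region, from 37617042 to 37618552, had 1159 and rank 14, so that these 2 were close, at a ratio of 0.961. The ATMIN region, from 81068603 to 81069662, had 474 and rank 233, within the top 5.42% of the list. CDK12 had 2.45 times the ATMIN signal, where its fold was 1.27 and 1.24 times and its fragments 1.67 and 1.62 times those of ATMIN. The unit of this signal is not named in the file header, so these ratios stand side by side as values and are not on 1 scale. All 3 regions had the top score of 1000, shared by 2420 regions. These 3 IDR regions were narrower than the replicate peaks of the same genes, at 1511 bp for CDK12, 2067 bp for ERCC4 and 1060 bp for ATMIN. Over the whole lists it was the reverse, with a median width of 1768 bp for IDR regions against 317 and 294 bp in replicates 1 and 2. The summits of the 3 regions lay 5 and 31 bp from those of the replicates at CDK12, 11 and 15 bp at ATMIN and 102 and 92 bp at ERCC4.

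**Figure D4:**
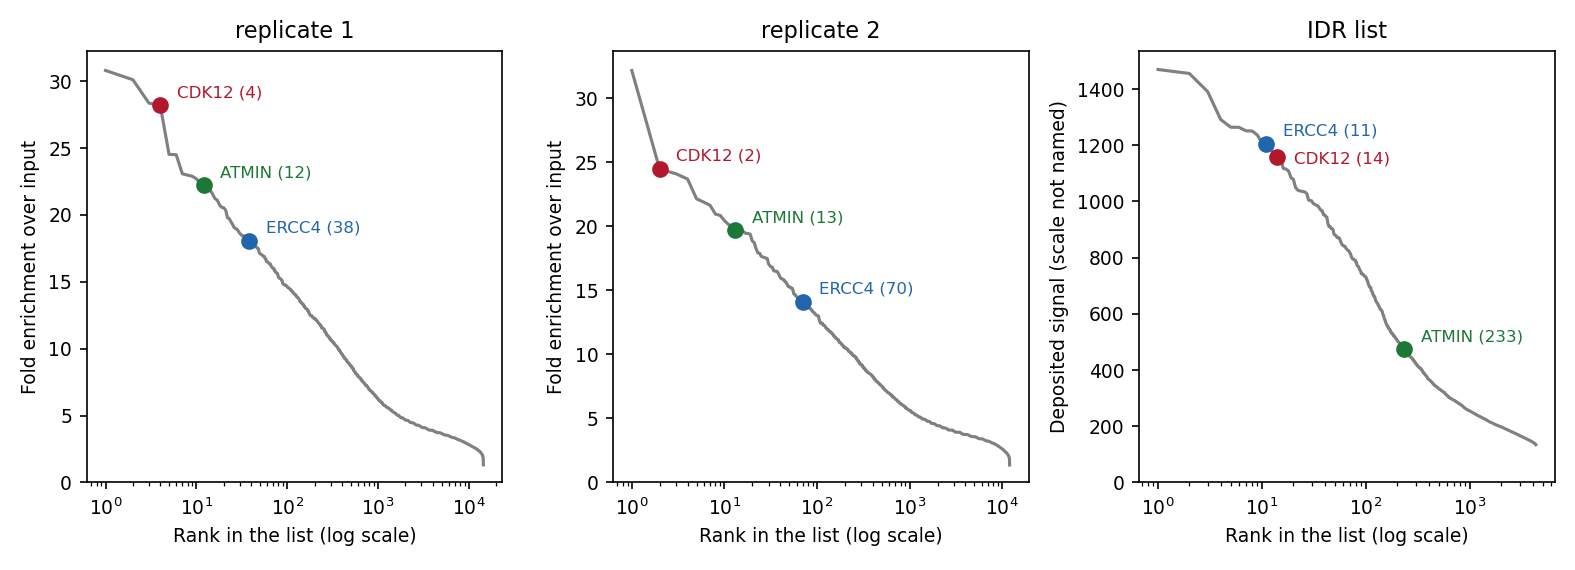
Fold enrichment over input by rank in the replicate lists and deposited signal by rank in the IDR list (rank on a log scale, grey line all peaks), with the promoter peaks marked and their ranks in brackets. CDK12 ranks 4, 2 and 14, ERCC4 38, 70 and 11, and ATMIN 12, 13 and 233, so that ATMIN is the lowest of the 3 in the IDR list and ERCC4 in the replicate lists.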

How the data were processed

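ONECUT2 ChIP in 22Rv1 cells was analysed from 3 deposited peak lists in hg19. Per the labels' protocols, chromatin was sonicated to between 100 and 500 bp and incubated with 4 µg of antibody. BWA 0.7.13-r1126, Picard and MACS2 2.1.1 are named, without their roles, in the submitters' processing notes. Per the file headers, the 2 replicate lists are MACS2 peaks, and per the labels each sets 1 ChIP library against input. Their columns, as the authors deposited them, are a fold enrichment (a ratio), a −log10 p-value and q-value, and a score that equals 10 times −log10 q cut to a whole number. The IDR list is an optimal set per the file headers, with a deposited score of 705 to 1000 and a deposited signal of 134 to 1470 whose scale is not named. All these values are the authors' own and serve to describe and rank peaks. Not given in the sources used here were calling settings, read filters, total reads and the way libraries were combined in the IDR list. No values of the separate input libraries were used.

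From fold and −log10 p, ChIP fragments and background at each summit were recovered with MACS2's formulas (pseudocount 1, upper Poisson tail), and a whole number fitted within 0.001 in 100% of peaks of both lists. The recovery and overlap steps were tested on simulated data. Overlap means at least 1 bp shared, ranks count from 1 at the highest, positions count from 1, and intervals are exact Poisson at 95%, which cover counting error only. Fragment numbers (medians 34 and 30) limit the precision of fold. Python 3.11.15, numpy 2.4.6, scipy 1.17.1 and pandas 2.3.3 were used. RefSeq promoter windows (GRCh38.p14) matched all 3 genes, and gene order came from the RefSeq gene table of that build.

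The genes, windows, words and alternatives were chosen with earlier results of these data known. The 3 genes are named always, the other peaks of their windows by position, at most 6 a window, if they are in the IDR list or in both replicate lists. Replicates left out in turn, other denominators, rankings, thresholds, window sizes and overlap rules were tried as alternatives. A list of other repair genes was not analysed, since it needs an hg19 annotation.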

Additional observations from a re-analysis of the deposited data

How the results depend on the processing

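Of 48 alternative values for 21 results, 19 stayed within the replicate SD or within 1.5 times of their result and 29 did not. Some of the 29 were bound to move, so the count does not measure stability. The CDK12 chromosome shares are the smallest that 608 and 393 peaks allow, and the ranks by deposited IDR score are ties at the top. Without either replicate the fold enrichment was 24.4 to 28.2 for CDK12, 14.1 to 18.1 for ERCC4 and 19.7 to 22.2 for ATMIN. With the smallest background of each list as denominator for every peak it was 59.6 for CDK12, 49.3 for ERCC4 and 36.3 for ATMIN, which by construction follows fragments. Ranks by fragments in replicates 1 and 2 were 1 and 8 for CDK12 and 162 and 110 for ATMIN, and 46 for ERCC4 in replicate 2. Ranks by −log10 p were 1 and 1 for CDK12, 7 and 20 for ERCC4 and 52 and 34 for ATMIN. As a percent of peaks of its own chromosome at its rank or better, CDK12 stood at 0.164% and 0.254%, ERCC4 at 0.820% and 1.58%, and ATMIN at 0.205% and 0.631%, against 0.0277% and 0.0167%, 0.263% and 0.584%, and 0.0832% and 0.108% of all peaks. By the deposited IDR score, CDK12, ERCC4 and ATMIN all had rank 1, tied with the other regions at the top score. With −log10 q of at least 5 the CDK12 window kept 3 and 2 peaks, the ATMIN window 2 and 2, and the ERCC4 window 1 in replicate 2. With 25 kb taken off each end, the ATMIN window kept 2 peaks in replicate 1. The promoter peaks are among those kept in each case. The numbers of replicate 1 peaks that overlap a replicate 2 peak did not move under either overlap rule. No paired analysis was possible because the values come from no test and input has no list of its own. Counting error of the log2 ratio of fragments between replicates was 0.11 for CDK12, 0.12 for ERCC4 and 0.14 for ATMIN.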

Other observations

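In both replicate lists the promoter peak held most of the called bases of its window. Promoter peaks made up 57.5% of the covered bases of the CDK12 window in replicate 1 and 58.9% in replicate 2, 100% and 85.0% at ERCC4, and 65.4% and 63.8% at ATMIN. In the IDR list the share was 65.8% at CDK12 and 100% at ERCC4 but 21.1% at ATMIN. RefSeq has a second ATMIN start on GRCh38.p14, whose 250 bases before it held 2 CpG dinucleotides, against 22 before the first start, and none of the searched words. In the CDK12 window of RefSeq 18 CpG were counted and in that of ERCC4 27, numbers that 36.8% and 17.7% of all promoter windows reach. The peak before CDK12 that ranked 59 in replicate 1 and 183 in replicate 2 differed more between libraries by fold (16.5 and 10.8) than by fragments (200 and 168), with summits 7 bp apart and backgrounds of 11.2 and 14.6 fragments.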
